A study of Homo sapiens with 34 samples.

Results

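The loci described here are the places in the genome of U2OS cells, a human osteosarcoma line, where CUT&RUN found Orc6 before oxidative stress and no longer found it afterwards. CUT&RUN uses an antibody to bring a nuclease to a chromatin protein, so that the DNA beside the protein is released and sequenced. A locus was a called region of the first non-treated (NT) Orc6 library that overlapped a region of the second NT Orc6 library by at least 1 bp and overlapped no region of either Orc6 library made after H2O2. Of 23375 regions in NT replicate 1, 20734 (88.7%) were shared with NT replicate 2, and 605 of these shared regions (2.92%) were lost by this rule. The other 20129 shared regions are called retained, 17646 of them with an H2O2 region in both replicates, 1509 in H2O2 replicate 1 alone and 974 in H2O2 replicate 2 alone. The members were thus chosen by the positions of Orc6 regions in these 4 libraries, and nothing about Orc6 itself is tested.

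The 4 Orc6 libraries came from cells given the control siRNA siGl3 for 72 h, either NT or exposed to 5 mM H2O2 for 30 min, with 2 replicates each. OGG1 and SMARCA1 were each profiled in siGl3 cells and in cells given an siRNA against Orc6 (siOrc6), NT and after the same H2O2 exposure, with 2 replicates per group and 16 libraries in all. All cells were collected in early S phase, 3 h after release from a double thymidine block, and 500000 fixed cells entered each reaction. The series holds 34 samples, of which 14 were not analysed here. U2OS is 1 tumour-derived line, and the labels do not say whether replicates were separate cultures, so p-values measure only the spread between these libraries.

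Orc6 is a subunit of the origin recognition complex, which marks replication origins and helps load the MCM helicase onto DNA before S phase. OGG1 is the glycosylase that starts base excision repair of 8-oxoguanine, the common product of guanine oxidation. SMARCA1, also called SNF2L, is an ATPase of the ISWI family of chromatin remodellers, which slide nucleosomes. A CUT&RUN region says that a protein was close to the DNA there, not that an origin fired or that a lesion was repaired.

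Among the lost loci, 80 promoter windows of the RefSeq table (250 bases before to 50 after a start, GRCh38.p14) lay wholly inside a lost locus, at 70 genes. The upstream 250 bases of 5 of them are shown, 5′ to 3′ on the strand of the gene: those of the protein-coding genes named below whose stretch overlapped no annotated gene. Each lay wholly inside a lost locus of NT replicate 1 and in no H2O2 region. NT replicate 2 regions covered 100% of the SEH1L, DCBLD1 and TMEM245 stretches and 0% of the EIF2B3 and IGLL1 stretches. Capitals mark a GC box (GGGCGG) or a CCAAT box (CCAAT) on either strand. The SEH1L stretch is chr18:12947761-12948010 (+), that of EIF2B3 is chr1:44986596-44986845 (-), that of IGLL1 is chr22:23580291-23580540 (-), that of DCBLD1 is chr6:117482424-117482673 (+) and that of TMEM245 is chr9:109119948-109120197 (-).
SEH1L: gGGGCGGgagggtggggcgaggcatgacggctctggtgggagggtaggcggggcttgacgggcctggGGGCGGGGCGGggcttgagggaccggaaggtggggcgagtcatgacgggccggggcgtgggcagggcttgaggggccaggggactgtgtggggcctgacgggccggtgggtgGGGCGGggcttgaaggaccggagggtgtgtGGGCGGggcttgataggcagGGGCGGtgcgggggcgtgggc
EIF2B3: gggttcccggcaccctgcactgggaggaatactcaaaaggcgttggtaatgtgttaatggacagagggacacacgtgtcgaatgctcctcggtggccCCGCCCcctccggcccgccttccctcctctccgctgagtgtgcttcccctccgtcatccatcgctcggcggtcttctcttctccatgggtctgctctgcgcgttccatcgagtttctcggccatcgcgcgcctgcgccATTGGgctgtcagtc
IGLL1: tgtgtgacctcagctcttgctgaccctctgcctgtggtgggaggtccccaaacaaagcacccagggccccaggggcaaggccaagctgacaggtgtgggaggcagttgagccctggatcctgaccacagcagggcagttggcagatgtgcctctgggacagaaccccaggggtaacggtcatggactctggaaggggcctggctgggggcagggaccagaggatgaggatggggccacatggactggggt
DCBLD1: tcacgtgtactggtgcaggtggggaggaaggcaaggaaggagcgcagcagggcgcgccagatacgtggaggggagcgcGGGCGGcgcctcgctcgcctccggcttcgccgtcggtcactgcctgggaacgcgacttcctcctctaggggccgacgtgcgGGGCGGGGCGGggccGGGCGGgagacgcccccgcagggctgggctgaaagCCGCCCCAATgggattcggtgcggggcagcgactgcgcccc
TMEM245: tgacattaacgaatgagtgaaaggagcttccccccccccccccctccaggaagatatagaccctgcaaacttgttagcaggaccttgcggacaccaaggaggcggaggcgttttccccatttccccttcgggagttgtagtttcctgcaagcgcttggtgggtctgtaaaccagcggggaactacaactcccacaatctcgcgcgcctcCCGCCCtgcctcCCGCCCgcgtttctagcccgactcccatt
The SEH1L stretch was 76.4% G or C and held 6 GC boxes, DCBLD1 was 74.0% G or C with 5 GC boxes and 1 CCAAT box, EIF2B3 was 62.8% with 1 of each, and TMEM245 was 58.8% with 2 GC boxes. IGLL1 was 63.6% G or C with 0 of either box, and the stretch of RAE1, which is not printed, was 70.4% with 0 of either box. Of all 43 protein-coding genes whose stretch lay in a lost locus, 25 had a GC box and 15 a CCAAT box in it.

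Over all 80 windows of 300 bases in lost loci, the median G+C content was 63.5% (quartiles 56.2 and 70.8), against 65.0% (57.7 and 71.7) in the 9631 windows inside retained loci and 58.7% (47.0 and 68.0) in all 34961 windows of the table. A GC box on either strand was found in 44 (55.0%) of the windows in lost loci, in 67.2% of those in retained loci and in 45% of all windows. A CCAAT box was found in 31.2%, 35.6% and 34.6%, a TATA box (TATAAA) in 6.25%, 5.93% and 11.5%, and an E-box (CACGTG) in 11.2%, 9.15% and 7.27%. An AP-1 site (TGANTCA) was found in 10%, 6.15% and 7.68%, and a G-quadruplex pattern, which can overlap a GC box, in 43.8%, 34.7% and 25%. Windows of 1 gene can overlap, and these matches are letters in a window, not measured binding sites. By median G+C content the windows in lost loci lay nearer to those in retained loci than to all windows, and by the GC box between them.

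Lost loci were weak Orc6 loci. Each list gives the authors' total signal of every region, which was used only to rank regions within that list. The median lost locus ranked at the 21.3rd percentile by total signal in NT replicate 1 (quartiles 9.24 and 38.9), the median retained locus at the 55.6th (30.0 and 78.2). Loci retained in 1 of the H2O2 replicates lay between, at the 29.8th percentile, and those retained in both at the 59.8th. In NT replicate 2 the order was the same, with the regions over lost loci at the 43.3rd percentile and those over retained loci at the 82.5th. By maximum signal in NT replicate 1 the medians were the 27.8th and the 54.0th percentile. Lost loci were also narrower, with a median width of 4553 bp (range 1861 to 35074) against 5088 bp (408 to 88163).

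The share of shared loci that were lost fell across the range of signal. In the 10% of shared loci with the lowest total signal 9.21% were lost (191 loci), in the next 10% 6.56%, in the fifth 2.89% and in the sixth 1.21%. In each of the 4 highest classes of 10% the share was between 0.241% and 0.434%. The lowest 25% of shared loci by total signal (at most 35708) held 368 of the 605 lost loci (60.8%), and the upper 50% held 53 (8.76%). Only 8 lost loci (1.32%) stood above the 90th percentile of NT replicate 1. By width, loss was greatest in the middle of the range, at 4.68% of the fifth class of 10%, and least in the widest class, at 0.482%.

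**Figure D1:**
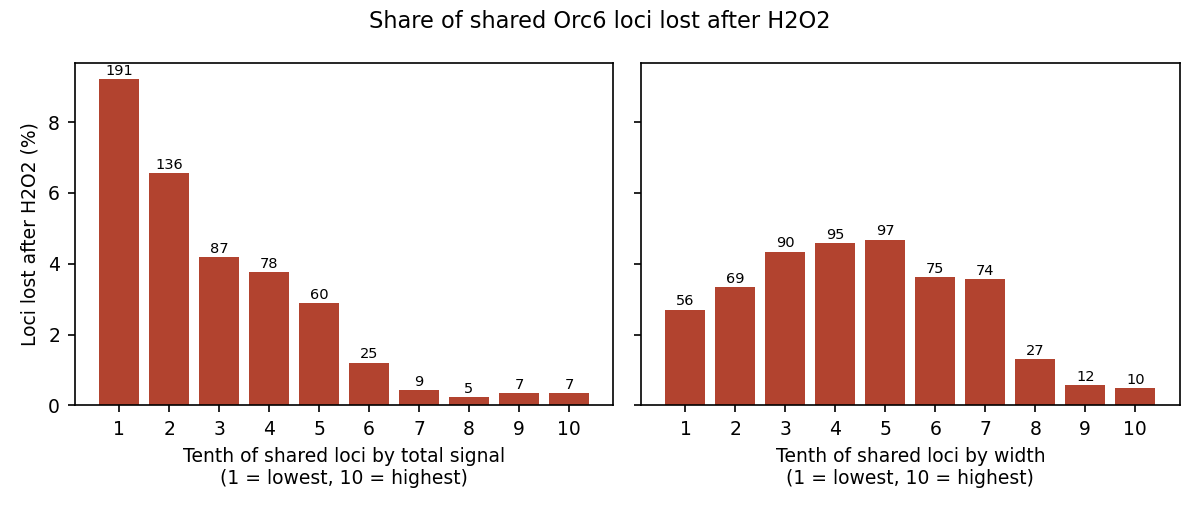
Percent of shared Orc6 loci lost after H2O2 (y axis) in 10 equal classes of the 20734 shared loci, ordered by total signal in NT replicate 1 (left) or by width (right), with the number of lost loci above each bar. The share was 9.21% in the class of lowest signal and at most 0.434% in the 4 classes of highest signal.

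The rule asks for no overlap with an H2O2 region, and loci lay on both sides of that limit by small distances. The 5 lost loci nearest to an H2O2 Orc6 region were 7, 13, 58, 72 and 74 bp away from it, and the 5 retained loci with the smallest overlap were covered by 4, 4, 7, 26 and 30 bp. Most lost loci lay farther from an H2O2 region. The nearest H2O2 Orc6 region was a median of 7562 bp away from a lost locus (quartiles 2131 and 20885), with 86 lost loci (14.2%) within 1 kb, 261 (43.1%) more than 10 kb and 41 (6.78%) more than 100 kb away. The farthest was a locus in the body of MACROD2, chr20:15218139-15222545, 794398 bp from any H2O2 region. It was among the weakest of the list, at the 0.246th percentile. Only 12 retained loci (0.0596%) were covered by under 100 bp in both H2O2 lists.

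Loci were lost although the H2O2 lists covered more of the genome than the NT lists. The Orc6 lists held 23375 and 63692 regions in the NT replicates, covering 4.71% and 9.56% of the genome span of 3.03 Gb, and 52937 and 37154 regions after H2O2, covering 11.2% and 13.2%. In the opposite direction, 5582 of 35545 regions shared by the H2O2 replicates (15.7%) overlapped no region of either NT list. Starting from NT replicate 2 instead, 842 of 22419 shared regions were lost (3.76%). Of the 605 lost loci, 561 (92.7%) were overlapped by one of these 842, and 586 of the 842 (69.6%) were overlapped by one of the 605. Leaving out 1 of the 4 Orc6 libraries loosens the rule, so a higher count was built in. Without NT replicate 1 the count was 14215, without NT replicate 2 1333, without H2O2 replicate 1 2114 and without H2O2 replicate 2 1579. Without an NT replicate, no overlap between NT replicates could be asked. Requiring that an H2O2 region cover 50% of a locus to retain it gave 1201 lost loci, and requiring that NT replicate 2 cover 50% gave 369. A further deposited list of 13557 regions, named for Orc6 in NT siGl3 cells but not for a replicate, overlapped 67 lost loci (11.1%) and 10529 retained loci (52.3%). Within the lowest 25% by signal it overlapped 6.79% and 25.8%.

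A smaller share of lost than of retained loci lay at gene ends, meaning 1 kb to either side of where a protein-coding gene starts or stops. The share of the genome at gene ends was not computed, so neither share is set against it. At gene ends were 66 lost loci (10.9%, exact 95% interval 8.54 to 13.7) and 31.9% of retained loci (31.3 to 32.6). The intervals are Clopper-Pearson and cover counting error only. The other loci were placed by their midpoint. It lay in the body of a protein-coding gene for 39.2% of lost and 33.8% of retained loci. For 14.2% and 10.1% it lay in another annotated gene, and for 35.7% and 24.1% between genes. The median distance to the nearest end of a protein-coding gene was 35.9 kb for lost and 14.2 kb for retained loci. Weak loci in general were farther from gene ends, so the comparison was repeated at like signal. In the lowest 25% by signal 10.3% of lost and 22.9% of retained loci were at gene ends, in the next 25% 9.24% and 27.6%, and in the upper 50% 20.8% and 38.3%. The difference was also seen with loci of at most the median width (10.5% and 29.5%), with wider loci (11.7% and 34.3%), with loci taken from NT replicate 2 (10.7% and 30.2%) and with a window of 5 kb (16.9% and 38.2%). These are descriptions of 1 pair of Orc6 lists, and no test was made of them.

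**Figure D2:**
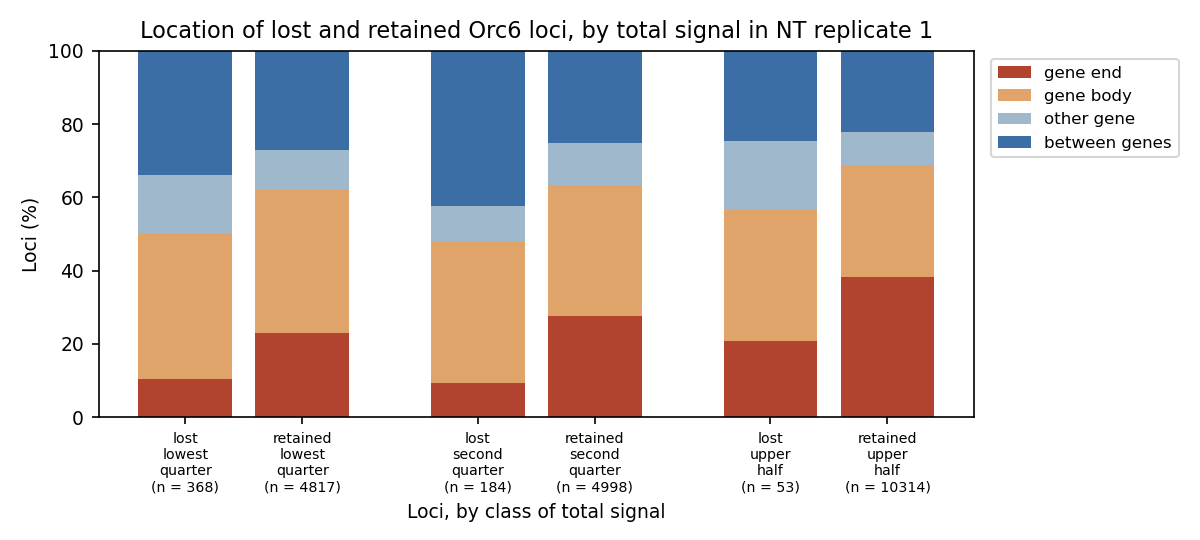
Percent of lost and retained Orc6 loci (y axis) at gene ends, in the bodies of protein-coding genes, at other genes and between genes, in 3 classes of total signal in NT replicate 1. The gene-end part of the bar was smaller for lost than for retained loci in each class, 10.3% against 22.9% in the lowest 25%.

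No tRNA or snRNA gene was near a lost locus. Within 1 kb of a tRNA gene were 0 of 605 lost loci and 108 retained loci (0.537%), and near snRNA genes 0 lost and 27 retained loci (0.134%). Taking 3 loci as a one-sided upper limit for a count of 0, the share at lost loci could be up to 0.496%. This is above the snRNA share at retained loci, so that the snRNA difference was not detectable at this number of loci. It is close to the tRNA share, so no tRNA difference is called either. Neither was compared at like signal. Long noncoding RNA genes were near 23.1% of lost and 25.3% of retained loci, pseudogenes near 3.97% and 4.56%, and miRNA genes near 0.992% and 1.35%. The share near snoRNA genes was higher at lost loci, 0.826% (5 loci) against 0.576%.

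The lost share varied between chromosomes, which is described here without a test. The intervals cover counting error only, for loci of 1 set of Orc6 lists, and the chromosomes named are the extremes. The interval of chromosome 21 included the share over all chromosomes, 2.92%. It was highest on chromosome 13, where 17 of 182 shared loci were lost (9.34%, exact 95% interval 5.54 to 14.5), then on chromosome 9 with 39 of 677 (5.76%, 4.13 to 7.79) and chromosome 21 with 11 of 200 (5.50%, 2.78 to 9.63). It was lowest on chromosome 14 with 8 of 915 (0.874%, 0.378 to 1.72), chromosome 22 with 8 of 654 (1.22%, 0.530 to 2.40) and chromosome 8 with 30 of 1606 (1.87%, 1.26 to 2.66). Signal differed between chromosomes too: the median shared locus of chromosome 13 stood at the 37.1st percentile, that of chromosome 14 at the 60.4th and that of chromosome 9 at the 51.1st. Among loci of the lowest 25% by signal the lost share was 16.7% on chromosome 13 (12 of 72), 15.7% on chromosome 9 (29 of 185) and 15.4% on chromosome 21 (6 of 39). It was 1.37% on chromosome 14 (3 of 219), 2.68% on chromosome 22 (3 of 112) and 3.97% on chromosome 8 (15 of 378). From NT replicate 2, chromosome 13 was again highest (12.5%) and chromosome 14 lowest (1.26%).

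**Figure D3:**
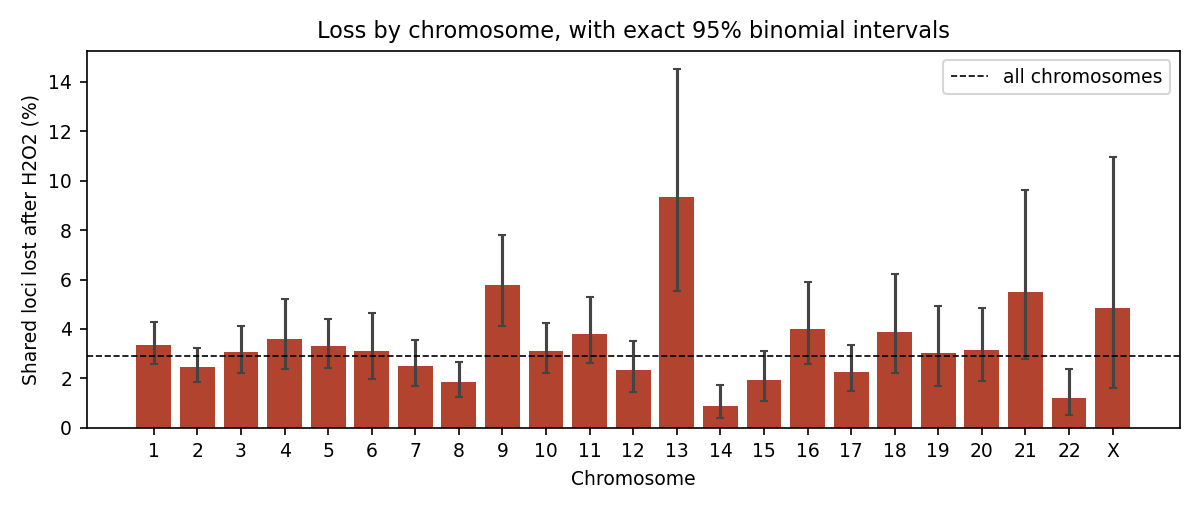
Percent of shared Orc6 loci lost after H2O2 on each chromosome (y axis), with exact 95% binomial intervals as error bars and the share over all chromosomes as a dashed line. Chromosome 13 was highest at 9.34% and chromosome 14 lowest at 0.874%.

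Most lost loci stood alone. With runs defined as lost loci less than 100 kb apart, 559 were single, 20 runs held 2 loci and 2 runs held 3. The runs of 3 were a stretch of 34.6 kb at SEH1L on chromosome 18 and one of 37.4 kb at SNAPC1 and SYT16 on chromosome 14.

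OGG1 and SMARCA1 regions, which the choice of loci did not use, were less frequent at lost than at retained loci. A locus was counted for a library when its midpoint lay in a called region of that library. Over the 8 SMARCA1 libraries the share was 14.6% ± 6.92 of lost and 38.1% ± 9.35 of retained loci (mean ± SD, n = 8), and over the 8 OGG1 libraries 51.0% ± 24.9 and 73.0% ± 21.6. The SD spans different siRNAs and treatments.

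In SMARCA1 libraries of siGl3 cells, lost loci were covered at 4.96% and 8.43% in the NT replicates and 16% and 14.5% after H2O2. Retained loci in the same libraries were at 20.9%, 31.8%, 37.7% and 39.9%. In siOrc6 cells lost loci were at 20% and 10.6% (NT) and 14.9% and 27.1% (H2O2), and retained loci at 50.7%, 36.2%, 39.4% and 48.4%. The lost share was below the retained share in each of the 8 SMARCA1 libraries, and the highest lost share, 27.1%, lay above only the lowest retained share.

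In OGG1 libraries of siGl3 cells, lost loci were covered at 21.0% and 29.1% (NT) and 77.7% and 74.2% (H2O2). Retained loci were at 44.6%, 50.4%, 94.6% and 89.1%. In siOrc6 cells lost loci were at 25.5% and 39.0% (NT) and 79.2% and 62.1% (H2O2), and retained loci at 48.6%, 79.0%, 95.3% and 82.3%. Each of the 8 OGG1 libraries again had the lower share at lost loci.

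The difference between lost and retained loci was -23.6 percentage points for SMARCA1 (range over libraries -30.7 to -15.9) and -22.0 for OGG1 (-40.0 to -14.9). An exact two-sided sign-flip permutation over the 8 libraries of each antibody gave p = 0.00781, the smallest it can give, and an adjusted p of 0.0312 over the 12 tests made. Without any 1 OGG1 library the smallest possible p was 0.0156 and the adjusted p was 0.0625, and the same held for SMARCA1 except without SMARCA1 siGl3 NT replicate 1. The libraries share the same loci, so the test speaks of libraries and not of further loci. Restricted to the lowest 25% of loci by signal, the differences were -14.4 points for SMARCA1 (-21.4 to -6.94) and -15.6 for OGG1 (-31.3 to -11.1), negative in all 16 libraries. Where a SMARCA1 region did overlap a lost locus, its median percentile of signal within its own list lay between 28.6 and 59.1, against 57.1 to 82.1 over retained loci. For OGG1 the ranges were 43.6 to 78.8 and 67.8 to 94.7.

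Lost loci were nevertheless above the share of the genome that each list covered. The lost share was 4.46 to 5.86 times the covered share of the span in SMARCA1 libraries and 2.85 to 4.11 times in OGG1 libraries. At retained loci these values were 9.27 to 22.1 and 3.47 to 8.32.

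**Figure D4:**
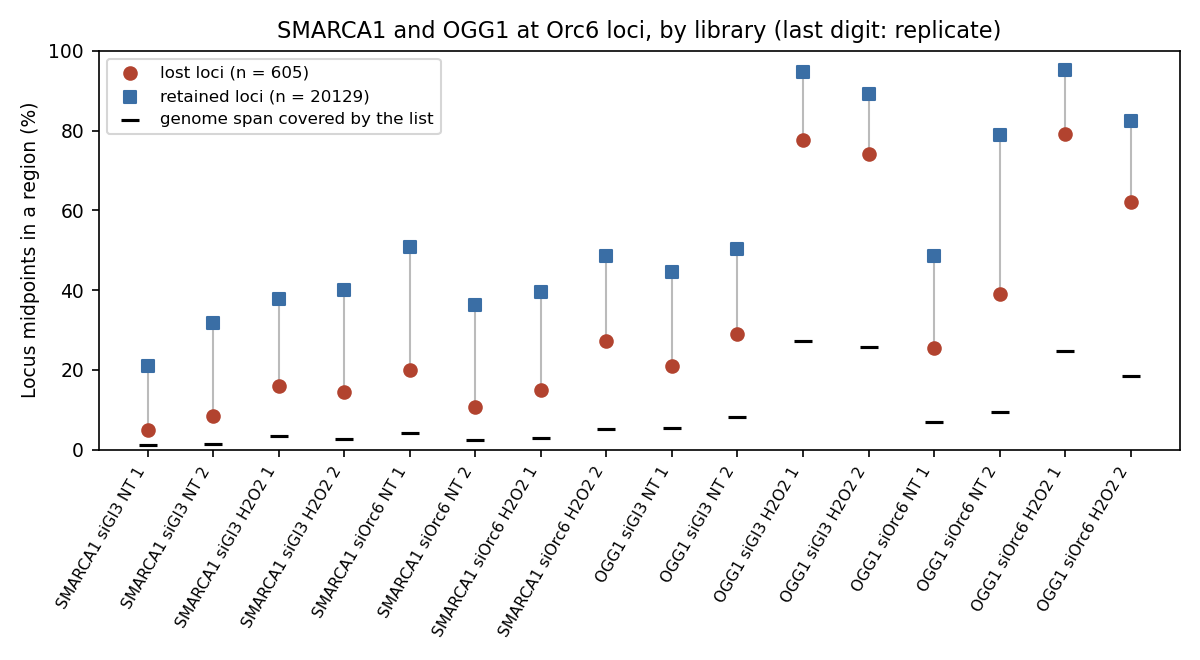
Percent of lost (circles) and retained (squares) Orc6 loci whose midpoint lay in a called region of each SMARCA1 and OGG1 library (y axis), with the percent of the genome span covered by that list as a dash. Circles lie below squares in all 16 libraries, and the OGG1 lists after H2O2 reach 62.1% to 79.2% of lost loci.

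After H2O2 more of the lost loci were in OGG1 regions, along with much longer OGG1 lists. Over both antibodies the share of lost loci rose from 19.8% (NT) to 45.7% (H2O2), a difference of 25.9 points that was positive in 7 of 8 pairs of libraries (exact permutation of the treatment label within antibody and siRNA, two-sided p = 0.00309, adjusted p = 0.0312). Labels were exchanged separately for each antibody, although SMARCA1 and OGG1 libraries share siRNA, treatment and batch number. If they came from the same cells, this p is too small, and either antibody alone cannot go below an exact p of 0.0556. The same holds for every test over both antibodies. With the replicate number as a block, p over both antibodies was 0.0156 and the adjusted p 0.0625, so that the call was lost. It was also lost when the lists of each antibody were cut to equal length by total signal, where the difference was 2.42 points (exact permutation, adjusted p = 0.424). For OGG1 alone the difference was 44.7 points, from 28.6% ± 7.67 to 73.3% ± 7.72 (mean ± SD, n = 4), positive in 4 of 4 pairs, and the ranges of NT (21.0% to 39.0%) and H2O2 libraries (62.1% to 79.2%) did not overlap. Its exact p of 0.0556 is the smallest this design allows, with an adjusted p of 0.133. At equal list length the OGG1 difference was 7.85 points (exact permutation, adjusted p = 0.190). The OGG1 lists covered 5.47% to 9.50% of the span in NT and 18.4% to 27.2% after H2O2. For SMARCA1 the difference was 7.15 points, from 11% ± 6.44 to 18.1% ± 6.01 (n = 4), positive in 3 of 4 pairs and with overlapping ranges (exact p = 0.111, adjusted p = 0.167). At equal list length the SMARCA1 difference was -3.02 points, and leaving out 1 library gave 4.09 (without siOrc6 H2O2 replicate 2) to 10.2 points (without siOrc6 H2O2 replicate 1).

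The rise was not shown to be particular to lost loci. The gap between lost and retained loci changed after H2O2 by 5.32 points over both antibodies (positive in 6 of 8 pairs, exact p = 0.0725, adjusted p = 0.145), by 9.95 points for OGG1 (4 of 4 pairs, exact p = 0.0556, the smallest possible, adjusted p = 0.133) and by 0.689 points for SMARCA1 (2 of 4 pairs, exact p = 0.833, adjusted p = 0.889). At equal list length the OGG1 value was -7.11 points, and on a log-odds scale -0.15. OGG1 regions held 82.3% to 95.3% of retained loci after H2O2. The SMARCA1 value was -5.66 when any overlap of 1 bp was counted.

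Knockdown of Orc6 was not followed by a called change at lost loci. The siOrc6 minus siGl3 difference in the share of lost loci was 7.15 points for SMARCA1 (18.1% against 11%, positive in 3 of 4 pairs, exact p = 0.111, adjusted p = 0.167) and 0.950 points for OGG1 (51.4% against 50.5%, 3 of 4 pairs, exact p = 0.889, adjusted p = 0.889). The gap between lost and retained loci differed by -3.99 points for SMARCA1 (adjusted p = 0.400) and -5.67 for OGG1 (adjusted p = 0.296, exact permutation). Leaving out 1 library gave -2.13 (without siGl3 NT replicate 1) to -5.85 (without siGl3 NT replicate 2) for the SMARCA1 gap and -1.47 (without siOrc6 NT replicate 2) to -9.87 (without siOrc6 NT replicate 1) for the OGG1 gap. For the SMARCA1 share it gave 4.09 (without siOrc6 H2O2 replicate 2) to 10.2 points (without siOrc6 H2O2 replicate 1). Direction depended on the measure: the OGG1 share difference was -3.22 points at equal list length, and the SMARCA1 gap differed by 3.21 points when any overlap of 1 bp was counted. The 4 SMARCA1 lists of siOrc6 cells carry a mark of resubmission in their names that the siGl3 lists lack, so the siRNA cannot be told apart from that mark.

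Single loci showed several combinations of the proteins. A lost locus was in a median of 5 of the 16 SMARCA1 and OGG1 libraries (quartiles 3 and 7) and a retained locus in 9 (6 and 12). In all 4 OGG1 libraries after H2O2 and in none of the 4 NT ones were 49 lost loci (8.10%), against 4.04% of all shared loci. Within the lowest 25% by signal the share was 9.24% of lost and 6.39% of retained loci. In all 4 OGG1 H2O2 libraries, whatever the NT ones, were 288 lost loci (47.6%; all shared loci 74.8%). In all 8 OGG1 libraries were 44 lost loci (7.27%; all shared loci 30.8%), and in none of the 8 were 29 (4.79%; 0.617%). For SMARCA1, 1 lost locus was in all 8 libraries (0.165%; 2.96%), 4 were in all H2O2 and no NT libraries (0.661%; 0.535%) and 0 in all NT and no H2O2 libraries (0.444% of shared loci). No SMARCA1 library had a region at the midpoint of 300 lost loci (49.6%; 19.7%), and 25 lost loci (4.13%; 0.477%) were in none of the 16 libraries. The opposite OGG1 pattern, all 4 NT and no H2O2 libraries, had 0 lost and 0 retained loci.

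Genes at lost loci were few. A lost locus lay within 1 kb of an end of 80 of 19974 protein-coding genes (0.401%), and 44 of the 80 had no H2O2 Orc6 region at either end. By the wider count of genes with an Orc6 region at an end in both NT libraries and no H2O2 library there were 64 (0.320%). Of 408 members of 15 gene lists found in the annotation, 4 had a lost locus at an end (0.980%), which is too few to compare with the background. They were SEH1L and RAE1 of 30 nuclear pore genes, PSMG3 of 35 proteasome genes and FHL2 of 23 osteoblast and mesenchymal genes. The count was 0 in each of the other 12 lists. Among them were 43 genes of origin licensing and the replication fork (22 with a retained locus), 33 of ISWI and other remodellers (19), 29 of base excision and mismatch repair (22), 29 of double-strand break repair and checkpoint (17) and 31 NRF2 and antioxidant genes (22). The others were 25 p53 targets (20 with a retained locus), 20 immediate early and AP-1 genes (15), 39 cytosolic ribosomal protein genes (26) and 29 replication-dependent histone genes (15). Genes of other cell types had few loci of either kind, with retained loci at 1 of 16 hepatocyte, 4 of 14 neuron and 0 of 12 blood cell genes. Of the osteoblast and mesenchymal genes, 9 of 23 had a retained locus. Over all 19974 protein-coding genes 7441 had one, which is the background for each of these lists.

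SEH1L encodes a nucleoporin that is also part of a complex regulating mTORC1, and its start lay in the strongest lost locus at a gene end. The locus, chr18:12942364-12955233, was 12870 bp wide and ranked at the 97.9th percentile in NT replicate 1 and the 99.9th in NT replicate 2. No H2O2 region was nearer than 7244 bp in replicate 1 and 18835 bp in replicate 2. A pair of further lost loci followed in the body of the gene, chr18:12958711-12970623 being the wider of them. The H2O2 regions on either side of the 3 loci were 76.5 kb apart in replicate 1 and 162 kb apart in replicate 2. They stood at the 74.3rd to 93.5th percentile of their lists. In NT replicate 2 the regions on either side of the first locus were also far apart, at 125 kb. The flanking regions and the percentile were the same for chr18:12958711-12970623, so the same NT replicate 2 region overlapped both loci.

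SMARCA1 and OGG1 regions lay over the same SEH1L locus in nearly every library. SMARCA1 regions covered 63.2% and 33.0% of it in siGl3 NT, 61.4% and 67.1% in siGl3 H2O2, 90.4% and 61.5% in siOrc6 NT and 63.0% and 77.8% in siOrc6 H2O2 libraries. OGG1 regions covered 73.7% and 90% in siGl3 NT, 100% and 100% in siGl3 H2O2, 74.3% and 100% in siOrc6 NT and 100% and 100% in siOrc6 H2O2 libraries. The midpoint was in 15 of the 16 libraries. The locus thus had both other proteins before and after H2O2 in lists where Orc6 was present only before.

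**Figure D5:**
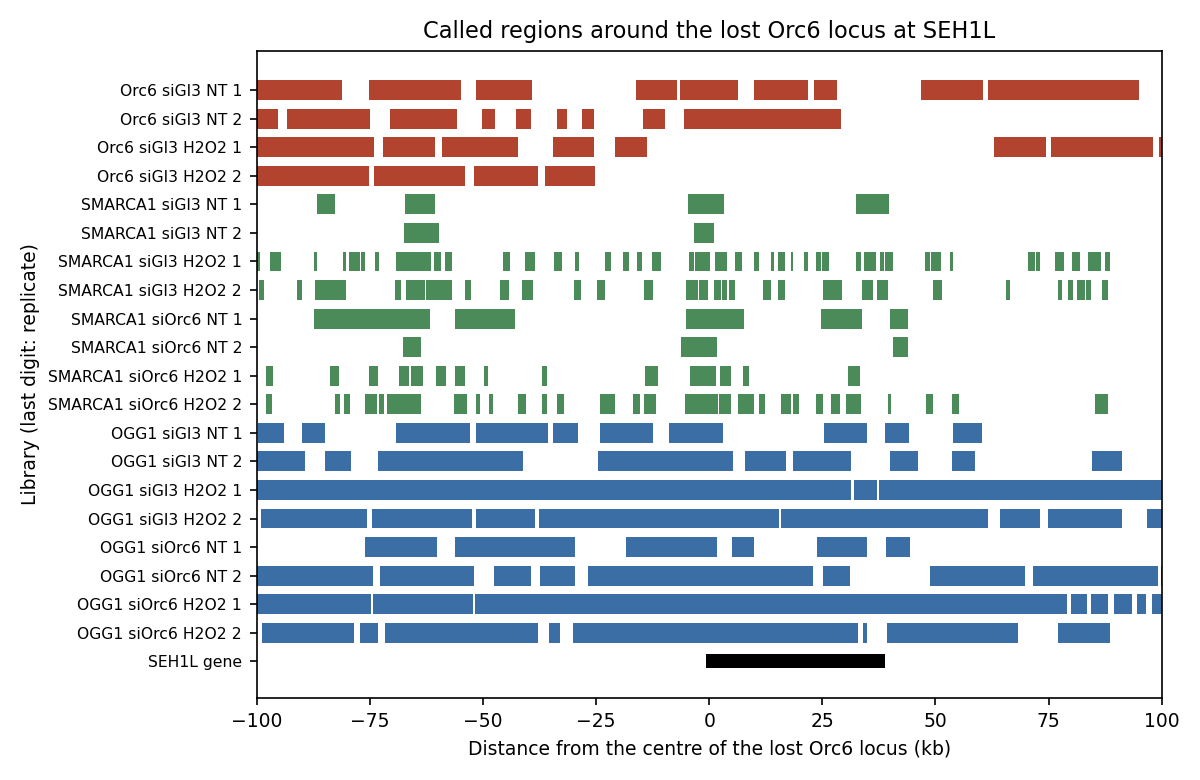
Called regions (bars) of each of the 20 libraries within 100 kb of the centre of the lost Orc6 locus at SEH1L, with distance in kb on the x axis and 1 library per row. The Orc6 NT rows have regions at the centre and the Orc6 H2O2 rows have none there, while SMARCA1 and OGG1 rows do.

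PSMG3, which encodes a chaperone for assembly of the proteasome, had a lost locus of 5014 bp, chr7:1568357-1573370. It stood at the 91.1st percentile in NT replicate 1 and the 98.3rd in NT replicate 2, with the nearest H2O2 regions 11669 and 14231 bp away. It was the only lost locus in all 16 SMARCA1 and OGG1 libraries, a pattern found at 2.49% of shared loci. OGG1 regions covered 100% of it in all 8 libraries, and SMARCA1 regions between 77.9% and 100%.

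RAE1, an mRNA export factor at the nuclear pore and a checkpoint protein of mitosis, had a lost locus at its start, chr20:57345040-57354791. It stood at the 84.6th percentile in NT replicate 1 and the 91.8th in NT replicate 2, and the nearest H2O2 region was 7943 bp away. Its midpoint was in 1 of 4 SMARCA1 NT, 1 of 4 SMARCA1 H2O2, 1 of 4 OGG1 NT and 1 of 4 OGG1 H2O2 libraries. OGG1 regions covered 0% of it in both siGl3 H2O2 libraries and in siOrc6 H2O2 replicate 1, although these were the lists that covered most of the genome, and 65.4% in siOrc6 H2O2 replicate 2. In NT libraries OGG1 covered 44.4% and 0% in siGl3 and 32.1% and 34.3% in siOrc6 cells. RAE1 had an H2O2 Orc6 region at its other end.

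FHL2, a LIM-domain cofactor of the mesenchymal list, had a lost locus of 26534 bp over its lower-coordinate end, chr2:105342069-105368602. It stood at the 97.8th percentile in NT replicate 1 and the 96.5th in NT replicate 2. SMARCA1 covered 0% of it in all 4 NT libraries and 43.0%, 6.19%, 9.04% and 2.70% in the H2O2 libraries. OGG1 covered 0%, 12%, 0% and 30.3% in NT and 100%, 87.9%, 96.6% and 65.2% in H2O2 libraries. For both proteins every H2O2 value was above every NT value at this locus. Every H2O2 list of either protein also held more regions than any of its NT lists. How many loci had this order was not counted.

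Of the next 10 genes by signal, those described here are EIF2B3, DRICH1 and IGLL1, DCBLD1, C1QTNF8, TMEM245, and LOC124903206 and NALF1, where pairs share 1 locus. EIF2B3 encodes a subunit of the guanine nucleotide exchange factor of translation initiation factor eIF2. Several were close to the limit of the rule. The nearest H2O2 region was 222 bp from the locus of DRICH1 and IGLL1, 471 bp from that of C1QTNF8 and 964 bp from that of EIF2B3. EIF2B3 had no lost locus at an end when loci were taken from NT replicate 2, where its region stood at the 11.6th percentile. The locus of DCBLD1 was 4811 bp and that of NALF1 10189 bp from an H2O2 region, and neither gene had one at either end. The midpoints of 5 of these 6 loci were in all 4 OGG1 H2O2 libraries, and that of DCBLD1 was in 3, where 74.8% of all shared loci were in all 4.

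The strongest lost loci were not all at gene ends. The widest and strongest, chr2:89809270-89844343, spans 35074 bp of the immunoglobulin kappa locus (IGK) at the 99.8th percentile of NT replicate 1, with 23608 bp to the nearest H2O2 region. It lies among near-identical gene copies, so the mapping of reads there is uncertain. OGG1 covered 20.8%, 0%, 0% and 87.1% of it in NT and 96.6%, 96.7%, 84.5% and 70.6% in H2O2 libraries. Next came chr8:121134972-121159939 between protein-coding genes (99.5th percentile, 3107 bp to an H2O2 region, midpoint in 13 of 16 libraries) and chr8:131840541-131854928 at a noncoding gene (97.5th, 10774 bp, 4 of 16). On chromosome 14, chr14:65203024-65212777 (90.7th percentile, 3336 bp) was in 11 of 16 libraries. The other, chr14:61782059-61792511 in the body of SNAPC1 (87.5th percentile, 35833 bp), a subunit of the complex that drives snRNA gene transcription, was in 6 of 16.

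Other loci had neither protein at their midpoint. The strongest of the 25 lost loci in none of the 16 libraries by midpoint lay in the body of VMP1, a protein of autophagosome formation, at chr17:59810703-59823651. It was 12949 bp wide and at the 82.7th percentile by total signal but only the 5.80th of maximum signal, and 605 bp from an H2O2 region. Away from its midpoint, OGG1 siGl3 H2O2 replicate 2 covered 41.2% of it. SMARCA1 covered 12.1% and 7.95% in the siGl3 H2O2 replicates and 14.4% in siOrc6 H2O2 replicate 2. Another, in the body of PDGFC, a growth factor gene, at chr4:156929424-156935179, was 9953 bp from an H2O2 region, and of 16 libraries only OGG1 siOrc6 H2O2 replicate 1 overlapped it, over 69.2% of its length. The narrowest lost locus, chrX:136909045-136910905, was 1861 bp wide and 655867 bp from an H2O2 Orc6 region. It was in 4 of 4 OGG1 and 3 of 4 SMARCA1 H2O2 libraries and in none of the 8 NT libraries.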

How the data were processed

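CUT&RUN region lists of 20 libraries in 10 groups of 2 were used, grouped by the sample titles. Region lists have the layout of SEACR, of which version 1.1 stands in the submitters' processing notes beside Bowtie2, deepTools, SAMtools and the build hg38, with no role stated. For each region the authors deposited a total and a maximum signal. Its normalization and control were not given in the sources used here. It served only to rank regions inside a list, and read depth is unknown. Chromosomes 1 to 22 and X were used. Genes, and promoter sequences, came from RefSeq tables of GRCh38.p14, which give gene ends without exons.

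Overlaps, distances and shares were computed with numpy 2.4.6, scipy 1.17.1 and pandas 2.3.3 under Python 3.11.15, and checked against bedtools 2.31.1 and simulated lists. Of 190 pairs of libraries, 0 held identical lists. With 2 libraries against 2, an exact test cannot go below p = 0.333, so labels were exchanged inside each combination of antibody with siRNA or treatment, with Benjamini-Hochberg adjustment over 12 tests. Batch and replicate number are equal in the labels, so the numbers pair the libraries. The correlation over 20734 shared loci of replicate 1 minus replicate 2 between NT and H2O2 was 0.049 and -0.048 for SMARCA1 (siGl3 and siOrc6) and 0.035 and -0.22 for OGG1.

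Named genes were list members with a lost locus at an end, then the 10 others of highest total signal. 1 locus among them is not reported here. Named loci were the 10 of highest signal, the widest, the narrowest, those in most and fewest libraries and the longest runs. The locus farthest from an H2O2 region was added after its value was seen. Members and lists were chosen with earlier results of these data known. Alternatives covered overlap, list length, width, signal, scale, window, block and left-out libraries.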

Additional observations from a re-analysis of the deposited data

Results flagged for a closer look

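In SMARCA1 libraries the gap between lost and retained loci moved in opposite directions after H2O2 in the 2 siRNA groups. In siGl3 cells the lost minus retained share changed by -5.72 and -2.05 points in replicates 1 and 2, and in siOrc6 cells by 6.20 and 4.33 points, so the mean changes differed by 9.15 points. The difference between the siRNA groups was not tested. The siOrc6 SMARCA1 lists also carry the mark of resubmission.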

How the results depend on the processing

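The share of lost loci at gene ends was 16.9% with a window of 5 kb, and the number of genes with a lost locus at an end was then 128. With the upper 50% of NT replicate 1 by signal there were 77 lost loci and 19 such genes, and with the upper 50% of the H2O2 lists 2653 lost loci. Lost loci numbered 369 where NT replicate 2 had to cover 50% of a locus and 1201 where an H2O2 region had to. Leaving out 1 Orc6 library gave 1333 to 14215 lost loci and 187 to 1053 genes, with fewer lists to meet the rule. For the H2O2 minus NT share of lost loci, equal list length gave 2.42 points over both antibodies and -3.02 for SMARCA1, and the replicate block left 25.9 points with an adjusted p of 0.0625. Among the 10 results fitted with the block this was the only one called without it, and none was called with it. The differences between lost and retained loci, which hold within each library, were not put to the block. With the numbers of OGG1 siOrc6 crossed (added after seeing the data) it gave 25.9 points and 0 calls among the 4 tests affected. For the change of the gap between lost and retained loci, equal list length gave -1.05 points over both antibodies and -7.11 for OGG1, an overlap of 1 bp gave -5.66 for SMARCA1, and loci of at most the median width gave -4.15 for SMARCA1. The lowest 25% by signal (added after seeing the data) gave -1.62 over both and -6.37 for SMARCA1, and log odds (also added) gave -0.15 for OGG1. For siOrc6 minus siGl3, the OGG1 share of lost loci was -3.22 points at equal list length and -3.68 in loci over the median width. The SMARCA1 gap was 3.21 points with an overlap of 1 bp and 0.13 on the log-odds scale. The causes of these moves were not tested.

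Leaving out 1 library gave 23.8 to 28.0 points for the H2O2 change over both antibodies, with an adjusted p of 0.0625 without SMARCA1 siOrc6 NT replicate 2 or H2O2 replicate 2. It gave -24.7 to -22.5 for the SMARCA1 and -23.0 to -19.5 for the OGG1 difference between lost and retained loci, where fewer libraries raise the smallest p. The change of the gap ranged from 3.22 to 7.42 over both antibodies (6.25, with an adjusted p of 0.0432, without SMARCA1 siGl3 NT replicate 1), from 5.75 to 14.2 for OGG1 and from -1.17 to 2.55 for SMARCA1. The OGG1 difference between siRNAs in the share of lost loci ranged from -3.31 to 5.21. Region lists hold no counts, so what depth limits cannot be given.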
